A study of Mus musculus with 2 samples.

Results

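TRBV19 and TRBV20 are variable (V) genes of the T cell receptor β chain (TCRβ), and the clonotypes that used them in induced T cells (iT cells) are described here. A clonotype is a distinct CDR3 nucleotide sequence with its assembled V, D and J genes, and it was taken as a member when its best-scoring V gene was TRBV19 or TRBV20. Members numbered 754 of the 3881 TCRβ clonotypes, 300 of 1640 in thymus and 454 of 2241 in spleen. Both genes were singled out for their reads, so their reads and leading clonotypes are given as a description, with no test.

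The iT cells came from mouse embryonic stem cells (iR9-ESC, C57BL/6, CD45.2+) that carried a doxycycline-inducible Runx1-p2a-Hoxa9 cassette in the Rosa26 locus. Hematopoietic progenitors made from them in culture were transplanted into sublethally irradiated B-NDG mice (NOD-Prkdc Scid IL2rg tm1, CD45.1+, 8 to 10 weeks old). These mice lack T, B and NK cells of their own, and the recipients are called iT-B-NDG mice. The paper's first transplants were done without doxycycline, but the recipients whose gut and lung were analysed were fed it. Whether the mice behind these libraries received doxycycline was not given. At week 6, 15000 sorted CD4SP and CD8SP cells, mixed in one library, were profiled from the thymus and 15000 from the spleen. Both gates took CD45.2+ donor cells. By the paper's methods, the thymus gate also removed TCRγδ+ and other lineages, whereas the spleen gate took naïve CD62L+CD44- cells. The paper's results text, however, calls the cells of both tissues naïve, so whether the gates differed in this is unclear. The number of mice behind each library was not given. Each tissue had 1 library, so tissue, gate and library cannot be told apart and differences between tissues have no replicate check. Since CD4SP and CD8SP cells were not separated and only TCR transcripts were amplified, the sorted identity could not be checked against other marker genes. The libraries held 1782199 TCRβ reads in thymus and 2765086 in spleen. No read minimum was set, and a count of 0 was taken to allow up to 3 reads, 0.000168% and 0.000108% of them. A read is a copy of a transcript after amplification, so more cells of a clone and more TCR RNA per cell cannot be told apart. Intervals are 95% intervals (Wilson for a share, Newcombe for a difference of shares) and cover counting error only.

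During T cell development in the thymus, a β chain gene is assembled by joining a D to a J segment and then a V gene to the DJ segment. The ends of the segments are trimmed and nucleotides are added before they are sealed, which makes the CDR3, the loop that contacts peptide and MHC, different in nearly every cell. Only a chain in frame and without a stop codon passes β-selection, after which the cell multiplies before it rearranges the α chain. All descendants of 1 rearrangement therefore carry the same CDR3.

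In GRCm38 (GENCODE M21), TRBV19 lies on the plus strand of chromosome 6 from 41178375 to 41179048 and TRBV20 from 41188273 to 41188977. Each is annotated as a V gene of 2 exons, and the last bases of the second exon enter the CDR3. The D and J segments lie downstream, with TRBJ1-2 from 41534001 to 41534048, TRBJ1-3 from 41534323 to 41534376, TRBJ2-4 from 41543362 to 41543410 and TRBJ2-5 from 41543453 to 41543501. The germline ends from which the leading clonotypes were built are shown first, 5′ to 3′ on the coding strand, each V from its first CDR3 codon and each J up to the last one, to show how much of each clonotype is germline.
TRBV19 germline end: tgtgccagcagtatag
TRBV20 germline end: tgtggtgctaggga
TRBJ2-4 germline start: agtcaaaacaccttgtacttt
TRBJ1-3 germline start: ttctggaaatacgctctatttt
TRBJ2-5 germline start: aaccaagacacccagtacttt
TRBD1 germline: gggacagggggc
TRBD2 germline: gggactgggggggc

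The CDR3s of the 3 clonotypes that held most reads of these V genes are shown next because the read shares below turn on them. Capitals mark the bases that MiXCR aligned to neither V nor J, that is, bases of the D segment or bases added at the joints.
TRBV19-TRBJ2-4, largest in both tissues: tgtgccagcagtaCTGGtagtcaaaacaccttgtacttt
TRBV19-TRBJ1-3, rank 2 of the spleen: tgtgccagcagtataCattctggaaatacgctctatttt
TRBV20-TRBJ2-5, largest in both tissues: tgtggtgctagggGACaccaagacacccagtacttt
The TRBV19-TRBJ2-4 clonotype kept 13 of 16 germline V bases and the whole J segment with 1 palindromic base, and had 4 bases between them, which occur in TRBD2. The TRBV19-TRBJ1-3 clonotype lost 1 V base, kept the whole J segment with 1 palindromic base, and had 1 base between them. In the TRBV20-TRBJ2-5 clonotype 1 base was missing from V and 1 from J, and 3 bases lay between them. No D gene was assigned in any of the 3, all were in frame, and their CDR3s had 39, 39 and 36 nt.

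Counted by clonotypes, TRBV19 was the most used of 26 TRBV genes in both tissues, with 189 clonotypes in thymus (11.5%, 10.1% to 13.2%) and 289 in spleen (12.9%, 11.6% to 14.3%). TRBV20 had 111 in thymus (6.77%, 5.65% to 8.09%) and 165 in spleen (7.36%, 6.35% to 8.52%). The thymus share minus the spleen share was -1.37 percentage points for TRBV19 (-3.43 to 0.733) and -0.594 for TRBV20 (-2.20 to 1.07), so neither share of clonotypes differed beyond counting error.

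Counted by reads, the genes looked unlike this. TRBV19 held 518200 reads in thymus, 29.1% of TCRβ reads, and 542677 in spleen, 19.6%. TRBV20 held 252454 reads in thymus (14.2%) and 54369 in spleen (1.97%), a share 7.20 times as high in thymus. Both genes together held 43.2% of TCRβ reads in thymus and 21.6% in spleen, from 18.3% and 20.3% of the clonotypes.

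Few clonotypes carried these reads. The TRBV19-TRBJ2-4 clonotype had 475490 reads in thymus, 91.8% of the TRBV19 reads there (91.7% to 91.8%), and 327215 in spleen, 60.3% (60.2% to 60.4%). It made up 26.7% of all TCRβ reads in thymus and 11.8% in spleen. The TRBV19-TRBJ1-3 clonotype had 167133 reads in spleen, 30.8% of the TRBV19 reads and 6.04% of all TCRβ reads, but 802 in thymus, 0.0450% of TCRβ reads. Its share of TCRβ reads was thus 134 times as high in spleen, and it ranked 2 among TRBV19 clonotypes there and 10 in thymus. The TRBV20-TRBJ2-5 clonotype went the other way, with 222857 reads in thymus, 88.3% of TRBV20 reads (88.2% to 88.4%), and 10532 in spleen, 19.4% (19.0% to 19.7%). It made up 12.5% of TCRβ reads in thymus and 0.381% in spleen, a share 32.8 times as high in thymus.

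Below these, reads dropped steeply, as the plot of reads by rank shows. The largest clonotype had 53.3 times the reads of the second for TRBV19 and 60.6 times for TRBV20 in thymus, against 1.96 and 2.63 times in spleen. In the spleen the step for TRBV19 came after the second clonotype, which had 58.6 times the reads of the third. Without clonotypes above 1% of TCRβ reads, TRBV19 held 2.40% in thymus and 1.75% in spleen, and TRBV20 held 1.66% and 1.97%. No TRBV20 clonotype of the spleen was above 1%, so the 1.97% is the whole gene. With the largest clonotype left out in both tissues, TRBV20 held 1.66% in thymus and 1.59% in spleen. The effective number of clonotypes, which weights each by its reads and equals the plain count when all have the same reads, was 1.85 for TRBV19 and 2.24 for TRBV20 in thymus. In the spleen it was 3.68 for TRBV19 and 58.5 for TRBV20. Without the largest clonotype of each, it was 54.0 and 43.8 in thymus and 4.91 and 84.5 in spleen. The TRBV20 reads of the spleen were therefore spread over many clonotypes, whereas those of TRBV19 there still rested on 1 after the largest was taken out.

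**Figure D1:**
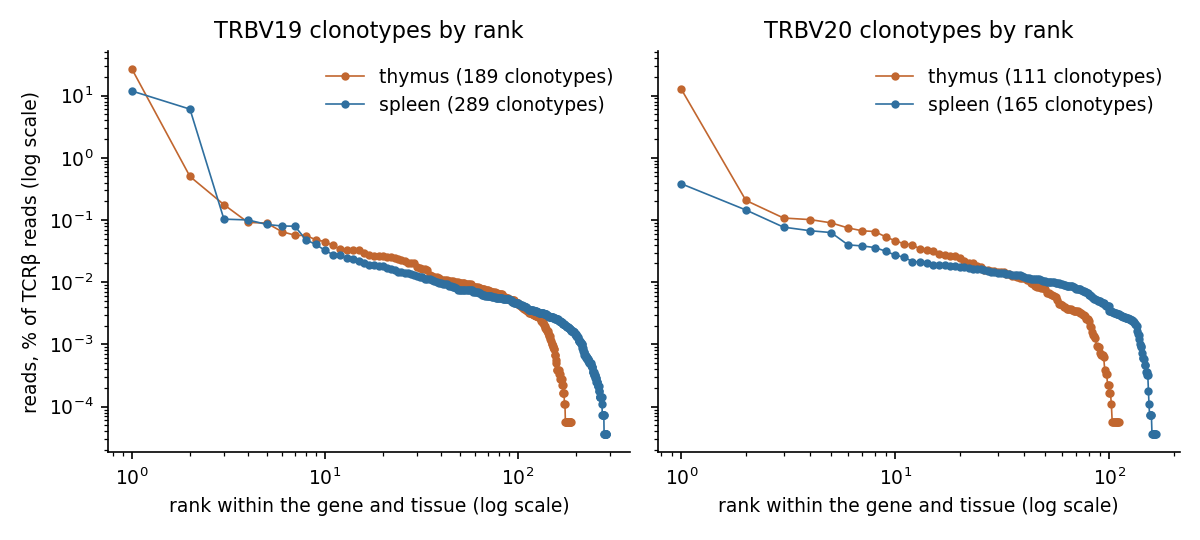
Reads of each clonotype as a percentage of TCRβ reads of its library (y axis, log scale) against its rank within the V gene and tissue (x axis, log scale), with TRBV19 on the left and TRBV20 on the right. Each point is 1 clonotype. The TRBV19 curves start at 26.7% in thymus and 11.8% in spleen, where a second point lies at 6.04%, and the TRBV20 curves start at 12.5% and 0.381%.

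A typical member had few reads. The median was 91 reads for TRBV19 and 105 for TRBV20 in thymus, and 78 and 158 in spleen, while the TCRβ clonotypes outside TRBV19 had medians of 80 and 129 and those outside TRBV20 had 82 and 118 in the same order of tissues. In the thymus 8 clonotypes of each gene had at least 1000 reads, and in spleen 9 of TRBV19 and 7 of TRBV20. A single read was all that 13 and 9 clonotypes had in thymus and 9 and 8 in spleen. No clonotype of any V gene differed by 1 substitution from a largest clonotype of its library, although 40 and 61 other TRBV19 clonotypes and 32 and 37 other TRBV20 clonotypes had the same length in thymus and spleen, respectively. MiXCR can merge such variants during assembly, and the settings used were not given in the sources used here.

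The next clonotypes differed in how far they were shared between tissues and are shown for comparison with the largest.
TRBV19-TRBJ1-5, rank 2 of the thymus: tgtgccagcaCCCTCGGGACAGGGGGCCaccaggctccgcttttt
TRBV19-TRBJ1-1, rank 3 of both tissues: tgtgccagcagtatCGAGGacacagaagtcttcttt
TRBV20-TRBJ1-2, rank 2 of the thymus: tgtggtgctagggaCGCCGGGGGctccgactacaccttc
TRBV20-TRBJ2-4, rank 2 of the spleen: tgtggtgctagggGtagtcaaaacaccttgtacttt
TRBV20-TRBJ1-2, rank 3 of the spleen: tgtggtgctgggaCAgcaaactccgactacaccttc
TRBV20-TRBJ1-2, rank 4 of the spleen: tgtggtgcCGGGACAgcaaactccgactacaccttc
The TRBV19-TRBJ1-5 clonotype had 8916 reads in thymus and 474 in spleen, and of its 18 bases between V and J a run of 12 matched the whole of TRBD1. The TRBV19-TRBJ1-1 clonotype had 3147 reads in thymus and 2853 in spleen, 0.177% and 0.103% of TCRβ reads, a share 1.71 times as high in thymus. The second TRBV20 clonotype of the thymus had 3678 reads there and 5 in spleen. The second of the spleen, TRBV20-TRBJ2-4, had 4005 reads there and 6 in thymus, and carried the same whole J segment with 1 palindromic base as the largest TRBV19 clonotype. The TRBV20 clonotypes of rank 3 and 4 in spleen, with 2121 and 1858 reads there and 79 and 144 in thymus, encoded the same CDR3 protein from nucleotide sequences that differed by 1 substitution. The V end of that of rank 3 was aligned by MiXCR with a difference from the germline shown above, so its capitals may understate the added bases.

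J segments are chosen from the TRBJ1 cluster behind TRBD1 and the TRBJ2 cluster behind TRBD2. Each clonotype counted once, TRBV20 was joined to TRBJ2 genes less often in both libraries than the other TRBV genes pooled. For TRBV19 no difference beyond counting error was seen. TRBJ2 shares were not taken for single other V genes, so low TRBJ2 use may not be particular to TRBV20. TRBJ2 genes took part in 50 of 111 TRBV20 clonotypes of the thymus (45.0%, 36.1% to 54.3%) against 66.7% of the 1340 clonotypes of TRBV genes other than TRBV19 and TRBV20, a difference of -21.7 percentage points (-30.9 to -12.1). In the spleen they took part in 80 of 165 TRBV20 clonotypes (48.5%, 41.0% to 56.1%) against 62.4% of 1787, a difference of -13.9 (-21.7 to -6.0). For TRBV19 the share was 61.9% in thymus and 63.7% in spleen, with differences from the other genes of -4.81 (-12.3 to 2.29) and 1.27 (-4.83 to 7.07). TRBV19 exceeded TRBV20 by 16.9 points in thymus (5.19 to 28.0) and by 15.2 in spleen (5.71 to 24.4).

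TRBJ1-2 was the most frequent partner of both genes by clonotypes, in 42 TRBV20 clonotypes of the thymus (37.8%) and 43 of the spleen (26.1%), and in 48 (25.4%) and 52 (18.0%) TRBV19 clonotypes. Against the other TRBV genes the TRBV20 share was 17.6 points higher in thymus (8.85 to 27.1) and 9.78 higher in spleen (3.42 to 17.1), where the difference was 4.99 (-1.41 to 12.9) among productive clonotypes alone. For TRBV19 the differences were 5.17 (-0.924 to 12.1) and 1.71 (-2.67 to 6.82). TRBJ2-3 was a rarer partner of TRBV20 than of the other genes, by -7.15 points in thymus (-9.62 to -1.99) and -5.26 in spleen (-8.73 to -0.0471). TRBV19 joined TRBJ2-3 in 8 of 189 clonotypes of the thymus, a difference of -5.62 (-8.31 to -1.45), and in 39 of 289 of the spleen, where it was 0.960 (-2.86 to 5.61). TRBJ2-2 was found with TRBV20 in 0 of 111 thymus clonotypes, which allows a share of up to 2.70% by the limit of 3 counts and 3.35% by the Wilson interval. The other genes had 4.40% there, a difference of -4.40 points (-5.64 to -0.919), and in spleen 6 of 165 TRBV20 clonotypes joined TRBJ2-2, a difference of 1.01 (-1.13 to 5.13). In all, 6 of 48 differences over 12 J genes, both V genes and both tissues had an interval that excluded 0, and the intervals were not widened for their number. The libraries are not independent in this, since some clonotypes were in both.

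**Figure D2:**
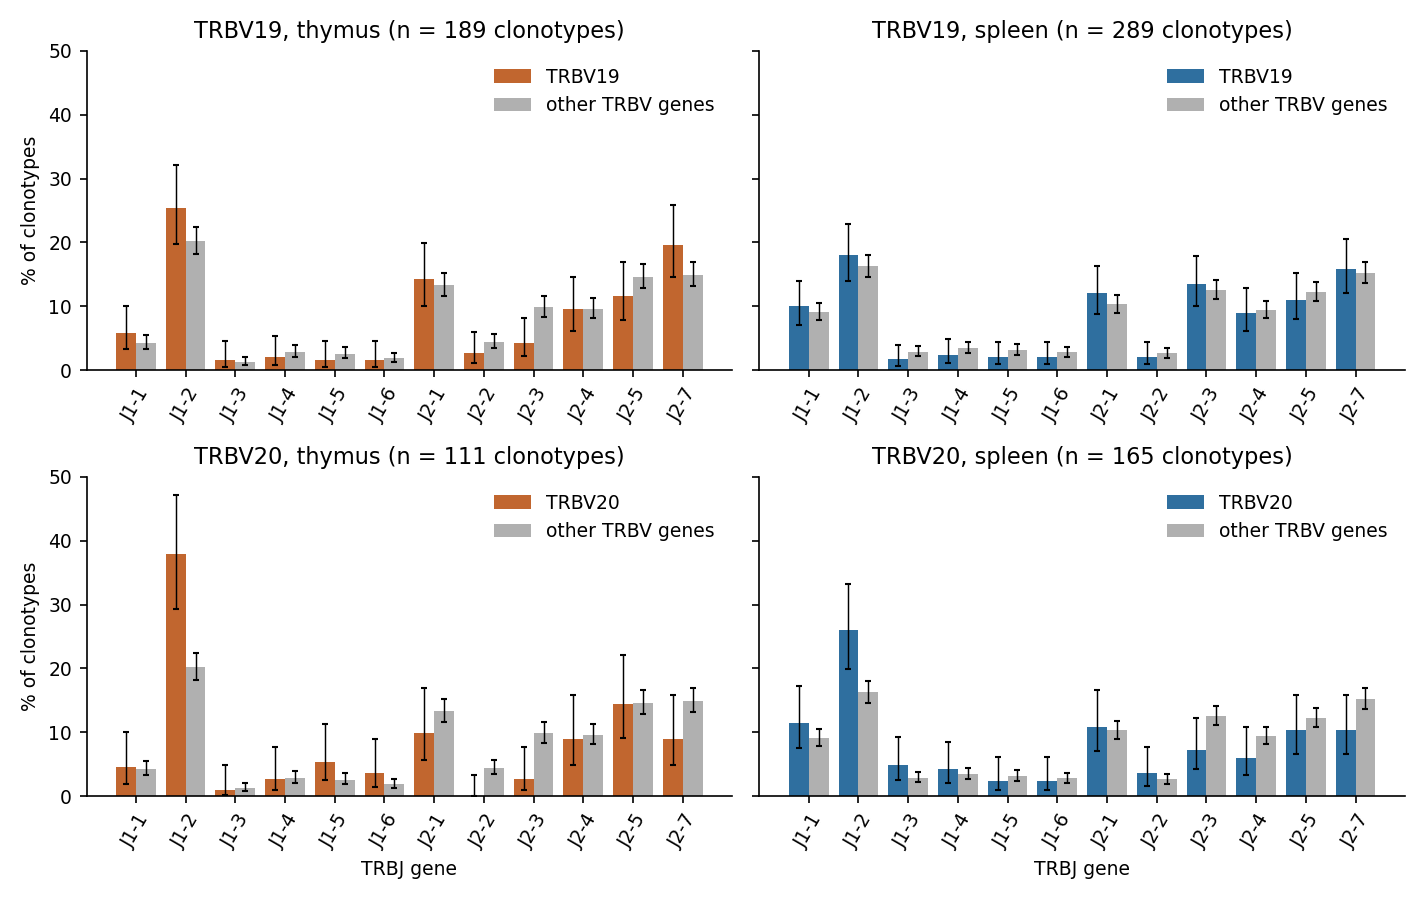
Share of clonotypes joined to each of the 12 TRBJ genes (x axis, written without TRB; y axis, % of clonotypes, each counted once) for TRBV19 (top) and TRBV20 (bottom) in thymus (left) and the spleen (right). Coloured bars are the V gene, grey bars all TRBV genes other than these 2, and error bars Wilson 95% intervals. The TRBV20 bar stands above the grey one at J1-2, at 37.8% in thymus and 26.1% in spleen, and below it at J2-3.

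Weighted by reads, the J partners were those of the leading clonotypes. TRBJ2-4 held 92.1% of TRBV19 reads in thymus and 60.7% in spleen, though it took part in 18 and 26 clonotypes only. TRBJ1-3 held 30.9% of TRBV19 reads in spleen from 5 clonotypes. TRBJ2-5 held 88.6% of TRBV20 reads in thymus and 25.1% in spleen, where TRBJ1-2 was ahead of it with 26.8%. By the overlap of J shares over clonotypes, the V genes most like TRBV19 were TRBV2 in thymus (84.1%) and TRBV31 in spleen (90.5%), and those most like TRBV20 were TRBV13-3 (82.9%) and TRBV17 (87.3%). These overlaps were taken over 12 J genes and 19 other V genes with at least 20 clonotypes in the library, and the leading gene was not the same in both tissues for either V gene.

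Most members were productive, meaning in frame and without a stop codon. The productive share of clonotypes was 77.8% for TRBV19 (147 of 189, 71.3% to 83.1%) and 76.6% for TRBV20 (85 of 111, 67.9% to 83.5%) in thymus. In the spleen it was 76.8% (222 of 289, 71.6% to 81.3%) and 80.6% (133 of 165, 73.9% to 85.9%). The other TRBV genes had 71.7% in thymus and 75.6% in spleen. The differences from them were 6.06 points (-0.800 to 11.9) and 4.86 (-4.14 to 12.2) in thymus for TRBV19 and TRBV20, and 1.22 (-4.33 to 6.15) and 5.0 (-1.97 to 10.7) in spleen, so none was larger than counting error. Of the unproductive members, 41 and 26 in thymus and 65 and 31 in spleen were out of frame, and 1, 0, 2 and 1 had a stop codon in frame.

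Unproductive clonotypes had fewer reads. The median was 116 reads for productive against 37.5 for unproductive TRBV19 clonotypes in thymus and 96.5 against 18 in spleen. For TRBV20 it was 155 against 44 and 233 against 70.5. Unproductive clonotypes held 0.759% of TRBV19 reads in thymus and 0.609% in spleen, and 1.04% and 4.43% of TRBV20 reads. Without the largest clonotype these shares were 9.20% and 1.53% for TRBV19 and 8.87% and 5.50% for TRBV20. The 1.53% is lowered by the productive TRBV19-TRBJ1-3 clonotype, which held 167133 of the 215462 TRBV19 reads left in spleen. The largest unproductive clonotypes of the thymus, both out of frame, ranked 4 for TRBV19 and 7 for TRBV20 and are shown because they reached reads that few productive members had.
TRBV19-TRBJ2-7, out of frame: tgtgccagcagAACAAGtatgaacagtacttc
TRBV20-TRBJ2-7, out of frame: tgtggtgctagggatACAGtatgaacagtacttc
The first, of 32 nt, had 1629 reads in thymus and 4 in spleen. The second, of 34 nt, had 1194 and 0. In the spleen the largest unproductive clonotypes were TRBV19-TRBJ2-3 with 258 reads and TRBV20-TRBJ1-2 with 492, neither of which was found in thymus.

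CDR3s of TRBV20 were shorter on average than those of TRBV19. Productive CDR3s were 37.4 ± 4.98 nt long in thymus (mean ± SD over n = 85 clonotypes) and 38.3 ± 4.34 nt in spleen (n = 133) for TRBV20. For TRBV19 they were 41.2 ± 4.65 nt (n = 147) and 41.4 ± 4.39 nt (n = 222). The SD here is the spread between clonotypes of 1 library, not between animals, so lengths and trimming are described without a test. The difference of the means was 3.74 nt in thymus and 3.07 nt in spleen. The germline V end is 14 nt for TRBV20 and 16 nt for TRBV19, and productive clonotypes had lost a mean of 2.01 and 2.90 V bases, respectively, in thymus and 2.14 and 2.77 in spleen. The other TRBV genes had 43.0 ± 8.72 nt in thymus (n = 961) and 42.2 ± 9.86 nt in spleen (n = 1351). Their median was 42 nt in both tissues, as was that of TRBV19, while TRBV20 had medians of 36 and 39 nt. The most frequent length of TRBV19 was 39 nt in both tissues (27.9% in each), also the length of its leading clonotypes. That of TRBV20 was 36 nt in thymus (38.8%), the length of its largest clonotype, and 36 and 39 nt were level in spleen (28.6% each).

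**Figure D3:**
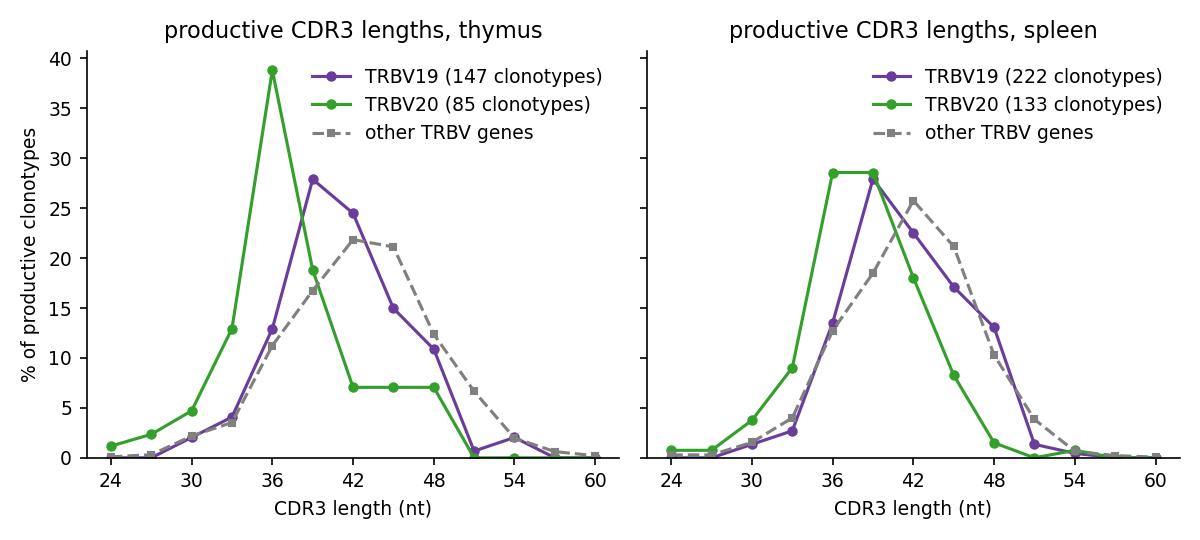
Distribution of CDR3 lengths of productive clonotypes (x axis, nt; y axis, % of productive clonotypes, each counted once) in thymus (left) and the spleen (right). Solid lines are TRBV19 and TRBV20, and the dashed line is all other TRBV genes between 24 and 60 nt. TRBV20 peaks at 36 nt in thymus with 38.8%, left of TRBV19, which peaks at 39 nt with 27.9% in both tissues.

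The junctions of productive members showed which ends were trimmed. TRBV19 had lost a median of 3 V bases in thymus and 2 in spleen, and TRBV20 had lost 1 in both. The V end was intact in 19.0% and 17.6% of TRBV19 clonotypes and in 30.6% and 35.3% of TRBV20 clonotypes, while the other TRBV genes had 31.2% and 36.2%. Where a D gene was assigned, the median number of added bases was 2 for TRBV19 in both tissues and 2 and 1 for TRBV20. The other TRBV genes had a median of 2 in both tissues. No added base was found in 24 of 109 and 41 of 164 TRBV19 clonotypes and in 8 of 41 and 31 of 93 TRBV20 clonotypes. For the other TRBV genes it was 124 of 668 in thymus and 231 of 925 in spleen. Whether these shares differ was not tested. Among all members, a D gene was assigned in 48.6% of TRBV20 clonotypes of the thymus, a difference of -19.1 points from the other genes (-28.5 to -9.58), but in 67.3% in spleen, a difference of 0.513 (-7.27 to 7.57). For TRBV19 it was assigned in 70.4% and 74.4%, with differences of 2.61 (-4.68 to 9.18) and 7.63 (1.89 to 12.8). TRBD2 lies between the TRBJ1 and TRBJ2 clusters, so a TRBD2-TRBJ1 join runs against the order of the locus. Such a join was listed for 2 of 147 and 4 of 222 productive TRBV19 clonotypes in thymus and spleen. For TRBV20 it was 0 of 85 and 1 of 133, and for the other TRBV genes 16 of 961 and 9 of 1351. The V bases were identical to the GENCODE germline in 92.6% and 92.4% of TRBV19 and 91.0% and 84.8% of TRBV20 clonotypes, and the trimming of the rest is uncertain.

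Some clonotypes were in both tissues with the same CDR3 nucleotide sequence and V gene. TRBV19 shared 50, which were 26.5% of its thymus and 17.3% of its spleen clonotypes, and TRBV20 shared 30, which were 27.0% and 18.2%. For the other TRBV genes 308 were shared, 23.0% and 17.2%. The J gene was the same in both tissues for all 50 and all 30. A further TRBV19 clonotype of the thymus, with 291 reads, was listed in spleen under TRBV13-3 with 316 reads. Shared clonotypes held 96.9% of thymus and 94.9% of spleen TRBV19 reads, and 95.5% and 53.2% of TRBV20 reads. Without the largest clonotype they held 62.8% and 87.2% of TRBV19 reads and 61.3% and 41.9% of TRBV20 reads. The 87.2% rested mostly on the TRBV19-TRBJ1-3 clonotype, with 167133 of the 215462 TRBV19 reads left in spleen. Shared members had more reads, with medians of 141 against 72 for unshared TRBV19 clonotypes in thymus and 169 against 73 in spleen. For TRBV20 the medians were 303 against 65 and 382 against 138. A clonotype with more reads is more easily found in both libraries, so this direction was partly set in advance. These medians were not taken for the other TRBV genes.

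The shared clonotypes were not present in like shares. Of 50 TRBV19 clonotypes 13 had at least 10 times the share of TCRβ reads in thymus, 9 at least 10 times that in spleen, and 13 were within 2 times. Of 30 TRBV20 clonotypes these numbers were 7, 4 and 9. These counts were not taken for the other TRBV genes, so they are no trait of the members. At least 100 reads in both tissues were found for 23 and 15, whereas 12 and 8 had under 10 reads in one of them. All 12 of TRBV19 and most of the 8 of TRBV20 were among those at least 10 times apart, where the ratio rests on few reads. Of the shared members, 44 of 50 and 27 of 30 were productive. The largest unshared clonotypes had 1015 reads in thymus and 1323 in spleen for TRBV19, and 1194 and 873 for TRBV20. It was not given whether the mice behind both libraries were the same, and carry-over of reads between them was not tested.

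**Figure D4:**
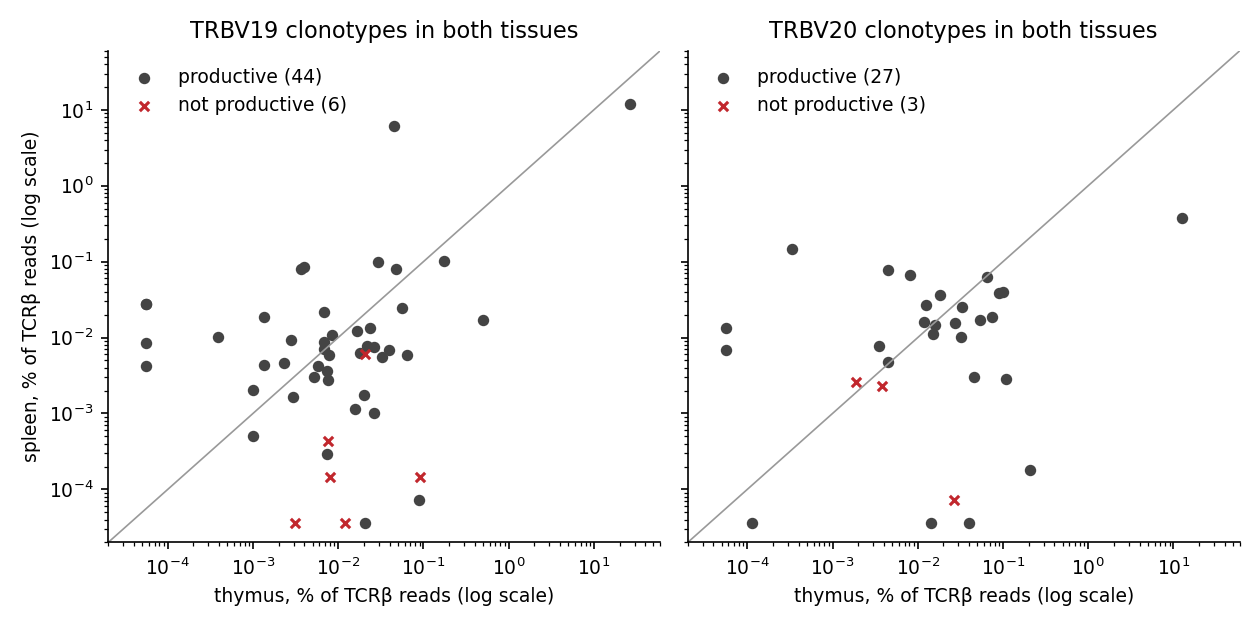
Clonotypes found in both tissues, 50 of TRBV19 (left) and 30 of TRBV20 (right), by their share of TCRβ reads in thymus (x axis, %, log scale) and in spleen (y axis, %, log scale). Circles are productive clonotypes, crosses are not, and the line marks equal shares. The TRBV19 point at 26.7% and 11.8% is near the line, that at 0.0450% and 6.04% far above it, and the TRBV20 point at 12.5% and 0.381% far below it.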

How the data were processed

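TCR transcripts were reverse transcribed and amplified with the SMARTer Mouse TCR a/b Profiling Kit and sequenced on a MiSeq. The authors assembled clonotypes with MiXCR 2.1.12 and deposited, per clonotype, the count of reads, not normalized, and that count as a fraction of the library's reads from both chains together. Molecular identifiers, assembly filters and the genome build were not given in the sources used here. The fraction was not used further. Here TCRβ clonotypes were taken by their first-listed TRBJ gene, with no read minimum, and shares were recomputed over TCRβ reads. Named were both V genes, all TRBJ partners, the 3 V genes most alike in J shares of which the first is given, and, of the 5 clonotypes with most reads per gene and tissue and the largest out of frame, those that matter. Members, lists and tests were chosen with earlier results of these data known. With 1 library per tissue no p-value was computed. Python 3.11.15, numpy 2.4.6, pandas 2.3.3 and matplotlib 3.10.9 were used, and the scripts were tested on simulated data. Alternatives were at least 2 or 10 reads per clonotype, productive members alone, weighting by reads, merging of 1-nucleotide errors at 20 times fewer reads, equal reads, tied V genes left out and other matching rules.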

Additional observations from a re-analysis of the deposited data

How the results depend on the processing

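Of 140 values recomputed under alternatives, 124 stayed within set limits, and the cause was not tested for the others. Some of the 124 could not move, so the count overstates how far the results were tried. No member had a tied V gene, and no clonotype lay 1 substitution from a largest one. Equal reads left the smaller thymus library as it was. The limits were the 95% interval for shares, 1.5 times for numbers of clonotypes, 1 SD between clonotypes for mean CDR3 lengths, and the same direction and side of 0 of the interval for TRBJ differences. The limit for lengths is wide: TRBV19 in thymus went from 41.2 to 39.2 nt when weighted by reads, and TRBV20 in spleen from 38.3 to 40.9 nt when unproductive clonotypes were counted. With productive clonotypes only, TRBV19 held 31.5% of TCRβ reads in thymus and 20.99% in spleen, and TRBV20 held 15.3% and 2.02%. The largest clonotype then held 92.5% and 60.7% of TRBV19 and 89.2% and 20.3% of TRBV20 reads. Weighted by reads, the productive share was 99.2% and 99.4% for TRBV19 and 99.0% and 95.6% for TRBV20, and the TRBJ2 share in thymus was 94.9% for TRBV19 and 92.0% for TRBV20. With at least 10 reads, 81.9% of TRBV19 clonotypes of the spleen were productive. The differences in TRBJ2 and TRBJ1-2 shares from the other TRBV genes were also recomputed with at least 10 reads and with productive clonotypes only, a choice made after seeing the data. Each kept its direction, and the TRBV20 difference at TRBJ1-2 in spleen, 4.99 points among productive clonotypes, no longer had an interval that excluded 0. No paired analysis was possible because each tissue had 1 library. Depth left counting intervals narrow for reads, but they cover neither amplification nor mice, and shares of clonotypes rest on 111 to 289 clonotypes.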

Other observations

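Different nucleotide sequences that encode the same CDR3 protein with the same V gene were found for 5 TRBV19 proteins in thymus and 6 in spleen, and for 2 and 3 TRBV20 proteins, with 2 sequences each. They took in 10 of 147 and 12 of 222 productive TRBV19 clonotypes and 4 of 85 and 6 of 133 productive TRBV20 clonotypes. The other TRBV genes were not counted in this way, so these numbers are no trait of the members. The sequences differed by 1 substitution for 4 of the 5 and 4 of the 6 TRBV19 proteins and for all 2 and 3 of the TRBV20 proteins, so whether they are separate rearrangements or read errors was not tested. For 1 TRBV19 protein of each tissue the substitution lay in the V part, with 35 and 6 reads in thymus and 35 and 2 in spleen. The pair with most reads was the TRBV20-TRBJ1-2 pair of the spleen described above, with 2121 and 1858 reads. Both sequences of that pair were found in thymus as well.

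The constant gene was listed as TRBC2 for 295 thymus and 452 spleen members and was missing for 5 and 2. TRBC1 was listed for 0 TCRβ clonotypes of either library, of any V gene. Among members joined to a TRBJ1 gene, 132 of 133 in thymus and 190 of 190 in spleen were listed with TRBC2, although TRBC1 lies directly behind the TRBJ1 cluster and TRBC2 behind TRBJ2. The constant gene was therefore not used in any comparison.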
